A study of Homo sapiens with 36 samples.

Results

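The effect of docosahexaenoic acid (DHA) on HepG2 cells at 24 h was taken from 18 of the 36 RNA-seq samples of the study, namely all samples of 24 h and none of the 18 samples of 6 h. HepG2 cells, an established line from a human hepatoma, serve as a model of liver cells. The 9 samples with DHA were 3 each of DHA (50 µM), DHA + PRO and DHA + PCA, and the 9 samples without DHA were 3 each of vehicle control (Ctrl), PRO (propionate, 70 µM) and PCA (protocatechuic acid, 20 µM). The co-treatments used the same doses. The pooled effect of DHA was the mean of 3 differences, DHA minus Ctrl, DHA + PRO minus PRO and DHA + PCA minus PCA, in a model with the replicate number (1, 2 or 3) as a factor. DHA was given as a complex with bovine serum albumin, every group was kept in serum-free medium during the treatment, and the control cells received albumin, ethanol and DMSO. The study does not state whether the cells with PRO or PCA alone received albumin and ethanol as well. The replicates of a group came from separate cultures, and in each of them the RNA of 3 wells was pooled before 1 library was made.

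DHA is a long-chain polyunsaturated fatty acid of fish oil. The sterol regulatory element-binding proteins (SREBPs) are membrane-bound transcription factors that are cut loose when sterols are scarce. They switch on the enzymes of cholesterol and fatty acid synthesis and the uptake of LDL. The study describes polyunsaturated fatty acids as known to regulate the nuclear level of SREBP-1, but not that of SREBP-2. Fatty acids of this kind also bind the nuclear receptors of the PPAR family, which drive fatty acid oxidation in the liver. They are easily peroxidized, and the products can release the transcription factor NRF2 from its inhibitor KEAP1, which raises antioxidant and detoxifying enzymes.

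Total counts of the 24 h libraries lay between 5617341 and 8657882 in 17 of 18 cases, and replicate 2 of DHA + PRO held 42326734. Library size was similar in both arms, with a median of 6764157 with DHA and 6944225 without. Replicate 1 of PRO stood apart from the rest. Its deviations from the mean of all libraries followed the GC content of the genes with a Spearman correlation of −0.675 across genes, where the other 17 libraries ran from −0.473 to 0.455, and the SD of its log2 deviations over genes above a log2 CPM of 3 was 0.322 against 0.131 to 0.210. It enters 1 of the 3 differences, and the counts of genes are given without it below. The liver label held: the summed level of 15 hepatocyte markers was between 72135 and 84704 CPM (read counts scaled to library size by TMM) over the 18 samples, with alpha-fetoprotein (AFP) alone at 9771 CPM on average without DHA. Of 16 markers of blood, stromal, endothelial and other epithelial cells, 9 were high enough to be tested and 7 were not. Of the latter PTPRC, CD3E, KRT5 and HBB had a count of 0 in all 18 samples. Of the former LYZ ran from 1551 to 2498 CPM and the epithelial marker EPCAM from 152 to 197 CPM, and CD68 and ACTA2 were at 49.9 and 42.2 CPM on average without DHA.

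With DHA more genes fell than rose. Of 11893 genes tested, 367 (3.09%) passed an adjusted p of 0.05 with an average log2 CPM above 0, the limits of the study, and these are the genes said below to have risen or fallen. Of them 114 rose (0.959% of the genes tested) and 253 fell (2.13%). The changes were small. The median absolute log2 fold change was 0.27 for the rises and 0.28 for the falls, and 15 rises and 32 falls reached 1.5-fold. Taking 9 samples against 9 made such sizes measurable, since the median standard error of a gene's log2 fold change was 0.0709 for the pooled effect and 0.119 to 0.125 for the 3 differences alone. Without the replicate factor 146 genes passed (34 rises and 112 falls), all of them among the 367.

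**Figure D1:**
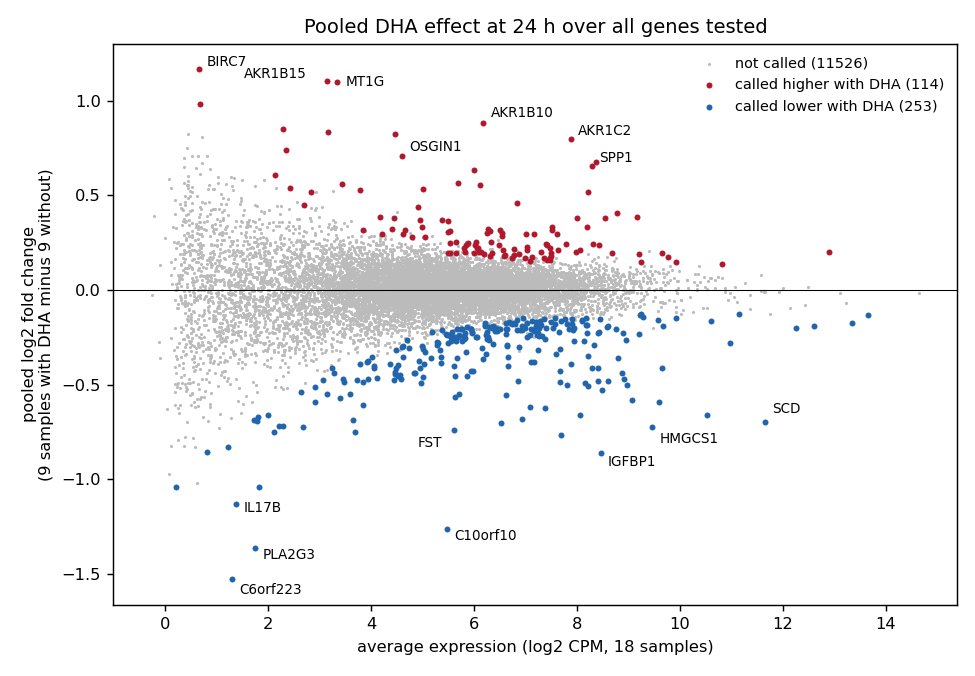
Pooled log2 fold change of every gene tested (vertical axis, 9 samples with DHA minus 9 without, at 24 h) against its average expression (horizontal axis, log2 CPM over 18 samples). Red points are the 114 genes that rose and blue points the 253 that fell; SCD and HMGCS1 are labelled among the genes of high expression that fell, whereas the largest changes, such as those of BIRC7 and C6orf223, belong to genes of low abundance.

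Each sample with DHA has a counterpart of the same background and replicate number, which gives 9 separate differences per gene. For 212 of the 367 genes all 9 differences had the sign of the pooled change (54 of the 114 rises and 158 of the 253 falls), and for 345 at least 8 had it. Over all genes tested 384 (3.23%) had 9 differences of one sign. The 9 differences come from 3 replicate numbers and are not independent, so the counts of signs are a description. The ranges of the 9 samples with and the 9 without DHA did not overlap at all for 42 genes (0.353% of those tested), 8 rises and 34 falls, and all 42 were among the 367.

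The largest rises were led by enzymes of the aldo-keto reductase family, glutathione transferases and metallothioneins. AKR1B10, a reductase of retinal and lipid aldehydes (chromosome 7 of hg19, 134212344 to 134226166), ran from 36.7 to 74.1 CPM (median 50.6) without DHA and from 82.2 to 112 CPM (median 92.1) with it. The 2 ranges did not overlap, and the log2 fold change was 0.88 (SE 0.058, adjusted p = 1.81e-10, quasi-likelihood test of edgeR, Benjamini-Hochberg, as for all adjusted p below). Its neighbour and close paralog AKR1B15 rose by 1.10 on the log2 scale (SE 0.11) from a mean of 5.36 ± 1.61 to 11.3 ± 1.19 CPM (SD, n = 9), and reads of AKR1B10 assigned to AKR1B15 could not be told apart from its own. The hydroxysteroid dehydrogenases AKR1C2 and AKR1C1, again near-identical genes on chromosome 10, rose by 0.80 (SE 0.063) and 0.68 (SE 0.063). The glutathione transferases GSTA1 and GSTA2, a further pair of near-identical genes, rose by 0.85 (SE 0.17) and 0.74 (SE 0.18) at levels of a few CPM, and GSTA1 was just outside the threshold without the replicate factor (adjusted p = 0.0503). GSTA2 was lost without replicate 3 of Ctrl and without replicate 3 of DHA + PCA (adjusted p up to 0.0707).

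The other large rises were of varied function. SPP1, which encodes the secreted matrix protein osteopontin, rose from 243 ± 39.6 to 384 ± 60.4 CPM (SD, n = 9). Its 9 differences were among the most even, between 0.57 and 0.87 (log2), although the levels themselves overlapped, with 266, 264 and 328 CPM in the 3 samples of PRO, 305, 339 and 332 CPM in those of DHA and 421, 432 and 486 CPM in those of DHA + PRO. OSGIN1, an oxidative stress-induced growth inhibitor, ran from 12.8 to 22.4 CPM without DHA and lay between 22.4 and 39.6 CPM with it, so that the ranges met but did not overlap. BIRC7, an inhibitor of apoptosis, had the largest rise of all (1.16, SE 0.29, adjusted p = 0.0200) at a level of 0.790 ± 0.366 CPM without DHA, and its call was lost in 5 of 23 alternative fits, each of them with 1 sample left out.

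The largest falls included several secreted proteins beside enzymes of lipid synthesis. C10orf10, also known as DEPP1 and a target of FOXO factors, ran from 29.8 to 91.9 CPM (median 55.2) without DHA and from 15.0 to 38.2 CPM (median 26.8) with it. The levels overlapped, but the 9 differences ran from −1.81 to −0.96 (log2), and the pooled change was −1.26 (SE 0.10, adjusted p = 1.02e-08). IGFBP1, an insulin-repressed binding protein of insulin-like growth factors, fell by 0.86 on the log2 scale from 453 ± 127 to 251 ± 73.6 CPM (SD, n = 9). Replicate 1 was the lowest of the 3 in all 6 groups, and the levels with and without DHA overlapped, while all 9 pairs were lower. FST, which encodes the activin antagonist follistatin, fell by 0.74 (SE 0.062), and AGR2, a disulfide isomerase of secretory cells, fell by 0.75 (SE 0.087) with no overlap between 7.80 and 10.9 CPM with DHA and 13.1 to 20.0 CPM without.

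At low abundance, C6orf223, an open reading frame of unknown function, had the largest fall (−1.53, SE 0.24), from 3.49 ± 1.04 to 1.28 ± 0.465 CPM. PLA2G3, a secreted phospholipase, fell by 1.36 (SE 0.18), but its 9 differences ran from −2.30 to −0.071, and the difference nearest to 0 was that against replicate 1 of PRO, without which the pooled value was −1.43. The cytokine gene IL17B fell by 1.13 (SE 0.21) without overlap of the 9 and 9 samples. CCDC87 (−0.86) and the adhesion molecule L1CAM (−0.72) fell as well, but did not pass without the replicate factor, with adjusted p = 0.0503 and 0.102. Their calls were lost in 4 and 10 of 23 alternative fits.

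**Figure D2:**
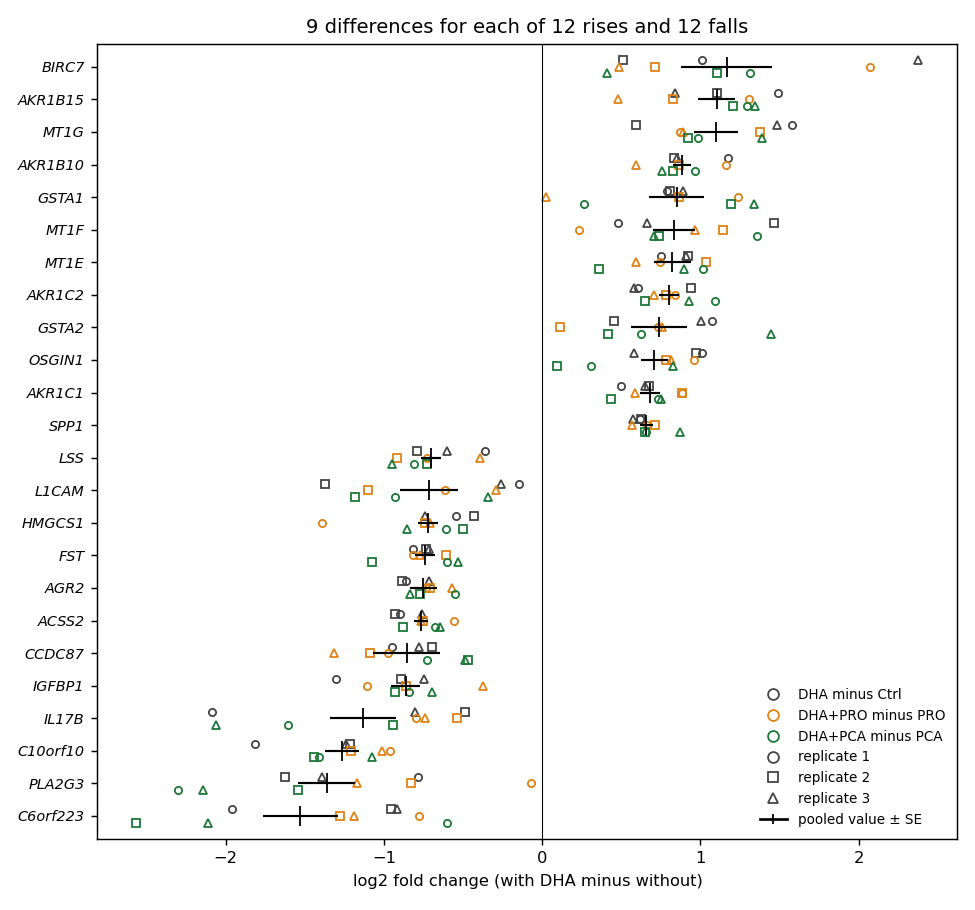
Log2 fold change with DHA in each of 9 pairs of samples (horizontal axis) for 12 genes that rose and 12 that fell, the largest changes of genes whose 9 differences agree in sign; colours give the background and symbols the replicate number. The black bar is the pooled value with its standard error; the differences of SPP1, AKR1B10 and ACSS2 lie close together, whereas those of BIRC7, IL17B and C6orf223 spread over more than 1 unit.

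Cholesterol synthesis fell along almost the whole pathway. Of 9 genes of the mevalonate pathway, which builds isoprenoid units from acetyl-CoA, 7 fell and 0 rose (median log2 fold change −0.49), and of 13 genes from squalene to cholesterol 12 fell and 0 rose (median −0.38), against a median of 0.0083 over all genes tested and 2.13% of them that fell. HMGCS1, which makes the precursor of mevalonate (chromosome 5, 43287572 to 43313614), ran from 790.1 to 1145 CPM (median 843) without DHA and from 436 to 672 CPM (median 535) with it. All 9 samples with DHA were below all 9 without, and the log2 fold change was −0.72 (SE 0.063, adjusted p = 2.21e-08). The highest sample was replicate 1 of PRO. The differences were −0.56 against Ctrl, −0.95 against PRO and −0.65 against PCA, and without that sample the pooled value was −0.67. IDI1, the isomerase of the activated isoprene units, fell by 0.50 (SE 0.061) and FDPS, the synthase of farnesyl diphosphate, fell by 0.49 (SE 0.040). ACAT2, the thiolase at the start of the pathway, fell by 0.41 (SE 0.040).

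In the second stretch of the pathway FDFT1, the squalene synthase, fell from 933 ± 61.0 to 619.6 ± 27.95 CPM (SD, n = 9). Its ranges of 838 to 1015 and 582 to 677 CPM did not overlap, and the log2 fold change of −0.59 had an SE of 0.034. LSS, which closes the ring to lanosterol, fell by 0.70 (SE 0.063), the sterol demethylase CYP51A1 fell by 0.48 (SE 0.043) and the methyl oxidase MSMO1 fell by 0.48 (SE 0.043). SQLE, the squalene epoxidase and a rate-controlling step, fell by 0.36 (SE 0.040), with no overlap between 362 and 436 CPM with DHA and 473 to 560.3 CPM without. The later steps fell too, DHCR7 at −0.47 and SC5D at −0.34. In the mevalonate list MVD, the decarboxylase, fell by 0.66. The members that did not pass were PMVK (−0.030) and GGPS1 (−0.11) in the mevalonate list and LBR (−0.021) in the other. LBR is also a protein of the inner nuclear membrane.

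Promoters were read to see which sequence letters the members share. RefSeq promoters (GRCh38.p14, 250 bases before to 50 after the start of the gene) are of another build than the hg19 files and were matched by symbol for 9780 of the 11893 genes tested and 286 of the 367 that changed. The letters CCAAT, the box bound by NF-Y, were found on either strand in 8 of 9 promoters of the called genes between squalene and cholesterol. In the mevalonate pathway they were in 4 of 5 of the called genes and 4 of 7 of the list. Their share was 37.0% of the genes tested, 44.9% of all genes that fell and 35.2% of those that rose. Lists treated below that mostly rose held them as well, in 7 of 13 promoters of called NRF2 genes and 6 of 9 of the amino acid response. The box is therefore not particular to the cholesterol genes. The full letters of a sterol regulatory element, ATCAC and CCAC with any base between them on either strand, were rare, in 10 of 9780 promoters (0.102%). They were in 3 of 198 promoters of genes that fell, those of SREBF2, MID1IP1 and C6orf223 (there after the start), and in 0 of 88 of genes that rose. In the mevalonate list 0 of 7 promoters held them, and in the list from squalene to cholesterol 0 of 10. The 2 motifs overlapped in 2 of 9775 promoters. The bases before the start of the gene are shown for 2 mevalonate genes with the CCAAT letters in capitals and for 2 genes with the sterol element in capitals.
HMGCS1 (chr5:43313413-43313662, minus strand): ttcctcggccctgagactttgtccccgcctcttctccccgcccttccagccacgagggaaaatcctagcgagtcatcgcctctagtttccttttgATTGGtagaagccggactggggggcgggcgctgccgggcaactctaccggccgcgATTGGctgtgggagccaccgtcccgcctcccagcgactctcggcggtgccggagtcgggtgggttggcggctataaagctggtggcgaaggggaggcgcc
MVK (chr12:109573544-109573793, plus strand): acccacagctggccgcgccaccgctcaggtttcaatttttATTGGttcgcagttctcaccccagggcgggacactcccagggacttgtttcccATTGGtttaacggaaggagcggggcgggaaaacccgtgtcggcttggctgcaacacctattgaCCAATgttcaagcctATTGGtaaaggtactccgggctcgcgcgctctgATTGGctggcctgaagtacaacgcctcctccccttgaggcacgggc
SREBF2 (chr22:41832955-41833104, plus strand): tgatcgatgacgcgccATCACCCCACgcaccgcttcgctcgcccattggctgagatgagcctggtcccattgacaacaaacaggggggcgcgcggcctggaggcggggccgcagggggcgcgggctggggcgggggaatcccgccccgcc
MID1IP1 (chrX:38801309-38801458, plus strand): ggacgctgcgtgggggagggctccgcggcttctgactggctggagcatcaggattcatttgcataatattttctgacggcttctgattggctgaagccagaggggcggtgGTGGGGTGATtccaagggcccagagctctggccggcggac
MVK, the mevalonate kinase, carried 5 matches and HMGCS1 2, and MVK fell by 0.35 and MID1IP1, a partner of acetyl-CoA carboxylase, fell by 0.33 on the log2 scale. Matches are a description of the letters and were not tested for binding.

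Fatty acid synthesis fell as widely. Of 10 genes tested 8 fell and 0 rose, with a median log2 fold change of −0.50, where 2.13% of all genes tested fell. SCD, the desaturase that makes monounsaturated fatty acids, ran from 3757 to 4288 CPM (median 4011) without DHA and from 2253 to 2584 CPM (median 2495) with it. All 9 samples with DHA were below all 9 without, and the log2 fold change of −0.70 (SE 0.032) had the smallest adjusted p of all genes (2.69e-13). ACSS2, which activates acetate, fell by 0.76 (SE 0.042), from 262 ± 13.7 to 154 ± 8.48 CPM. ACLY, which cleaves citrate to acetyl-CoA, fell by 0.50 (SE 0.035), ACACA, the carboxylase that makes malonyl-CoA, fell by 0.38 (SE 0.044), and FASN, the fatty acid synthase, fell by 0.66 (SE 0.067). FASN was the least even of them, with differences of −0.61 against Ctrl, −0.45 against PRO and −0.92 against PCA, and the test over backgrounds did not pass (adjusted p = 0.437). SLC25A1, the mitochondrial citrate carrier, had −0.14 (adjusted p = 0.191).

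While 2.13% of all genes tested fell, of 10 desaturases and elongases 4 fell and 0 rose (median −0.16). These were SCD, ELOVL6 (−0.56), which elongates palmitate, and the desaturases FADS2 (−0.62) and FADS1 (−0.41), which act in the synthesis of polyunsaturated fatty acids themselves. FADS1 was lower in all 9 pairs and without overlap. FADS2 was lower in 8 of 9, the exception being the pair of replicate 1 on PRO at 0.0036, and without that PRO sample the pooled value was −0.68. ELOVL5, an elongase of polyunsaturated fatty acids, had −0.17 (adjusted p = 0.0706).

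Both SREBP genes fell, but by different amounts. SREBF1, which encodes the form that favours fatty acid synthesis, fell by 0.68 (SE 0.077), from 149.8 ± 23.3 to 93.5 ± 17.3 CPM (SD, n = 9). SREBF2, which encodes the form that favours cholesterol synthesis, fell by 0.22 (SE 0.047, adjusted p = 0.00649), from 318 ± 29.4 to 272 ± 16.7 CPM. All 9 pairs were lower for both genes. The other 4 genes tested of this control circuit did not pass, and INSIG2, which holds SREBPs in the endoplasmic reticulum, had −0.15 (adjusted p = 0.173). INSIG1 was listed with a count of 1 over the 18 samples and could not be tested.

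**Figure D3:**
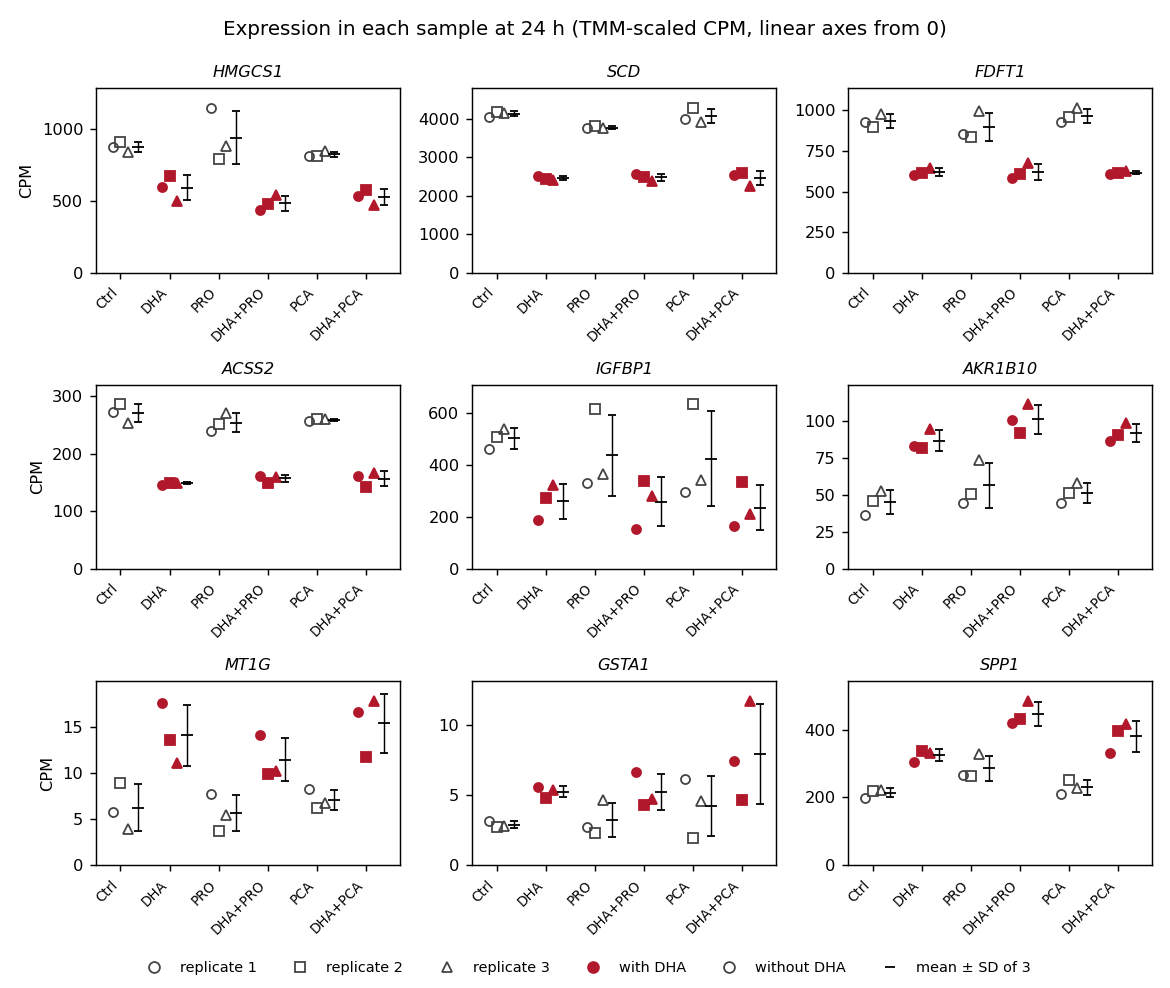
Expression of 9 genes in each of the 18 samples of 24 h (TMM-scaled CPM, linear vertical axes from 0), by treatment, with filled symbols for DHA, a symbol per replicate number and the mean ± SD of 3 beside them. For HMGCS1, SCD, FDFT1 and ACSS2 every sample with DHA lies below every sample without, and for AKR1B10 and MT1G above; IGFBP1, GSTA1 and SPP1 overlap but move the same way in every pair.

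Genes listed for LDL uptake and sterol traffic, which act in either direction on uptake, fell in part. Of 14 genes 7 fell and 0 rose (median −0.14), where 2.13% of all genes tested fell. MYLIP, a ubiquitin ligase induced by oxysterols, fell by 0.59 (SE 0.12) at a level of 8.75 CPM without DHA. The sterol carrier STARD4 fell by 0.40 (SE 0.064) and NPC1L1, which takes up free sterol, fell by 0.29 (SE 0.045). NPC2, the lysosomal cholesterol carrier, had 0.046 (adjusted p = 0.668).

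Genes of the liver X receptor (LXR), the sensor of oxysterols, were split. Of 9 tested 4 fell and 0 rose, namely SREBF1, MYLIP, the phosphodiesterase SMPDL3A (−0.45) and the phospholipid acyltransferase LPCAT3 (−0.20). The share that fell over all genes tested was 2.13%. The cholesterol exporters did not pass. ABCA1 had 0.023 (SE 0.047) and ABCG5 −0.090 (SE 0.064). The value of ABCA1 was the mean of unlike differences, 0.11 against Ctrl, −0.26 against PRO and 0.22 against PCA (unadjusted p = 7.46e-04 over backgrounds, adjusted p = 0.293), and without replicate 1 of PRO it was 0.050. LPCAT3 did not pass without the replicate factor (adjusted p = 0.0546).

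The mixed list of PPAR targets and genes of fatty acid oxidation held changes in both directions. Of all genes tested 0.959% rose and 2.13% fell. Of the 33 of this list 5 (15.2%) rose and 4 (12.1%) fell, and the median was 0.062. The rises were led by CREB3L3, a membrane-bound transcription factor of fasting lipid metabolism, which ran from 24.97 to 63.9 CPM without DHA and from 58.1 to 95.1 CPM with it (0.64, SE 0.095). The lowest of these samples was replicate 1 of PRO, without which the value was 0.53, and the log2 fold changes were 0.37 on Ctrl, 0.96 on PRO and 0.57 on PCA. The carnitine carrier SLC25A20 and the acyl-CoA dehydrogenase ACADVL rose by 0.32 and 0.22, and ACAA2 and HSD17B4 by 0.17 and 0.16. The falls included FABP1, the fatty acid-binding protein of the liver (−0.41, SE 0.051), and the acyl-CoA synthetases ACSL3 (−0.51) and ACSL4 (−0.44). The differences of FABP1 ran from −0.72 to −0.61 on Ctrl and from −0.47 to −0.10 on PRO and PCA. For ACSL4 the pair of replicate 1 on PRO had −1.07, and the other pairs ran from −0.62 to −0.15. That pair also had the largest fall of ACSL3 (−0.78). HADHA, the trifunctional protein of oxidation, had 0.035 (SE 0.036).

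Of 21 genes of triglyceride storage 1 rose and 2 fell (median −0.036), where 0.959% of all genes tested rose and 2.13% fell. The phosphatidate phosphatase LPIN1 fell by 0.55 (SE 0.064) and the lipase PNPLA3 fell by 0.49 (SE 0.064), whereas DGAT1, which makes triglyceride from diglyceride, rose by 0.29 (SE 0.061), a call that was lost without the replicate factor (adjusted p = 0.0859). The droplet coat protein PLIN2 was higher in 9 of 9 pairs but did not pass (0.16, adjusted p = 0.0705). Of 17 apolipoproteins and assembly factors 1 passed, APOB, the structural protein of VLDL, which fell by 0.13 (SE 0.032), a call lost without the replicate factor (adjusted p = 0.342). APOA1 had 0.079 (SE 0.063).

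The antioxidant response was the broadest group of rises. Of 28 NRF2 target and pathway genes 20 rose and 0 fell, with a median log2 fold change of 0.24, where 0.959% of all genes tested rose. Beside the aldo-keto reductases and OSGIN1 the rises were mostly small, and without the replicate factor 13 of the 28 passed. NQO1, the quinone reductase, rose from 498 ± 40.7 to 649.8 ± 40.1 CPM (SD, n = 9) without overlap, and its log2 fold changes were nearly equal on the 3 backgrounds (0.38, 0.39 and 0.38). TXNRD1, the thioredoxin reductase, rose by 0.32 (SE 0.043), and SLC7A11, the cystine importer, by 0.56 (SE 0.11) with an uneven pattern of 0.53 against Ctrl, 0.23 against PRO and 0.93 against PCA. HMOX1, the heme oxygenase, rose by 0.32, and the ferritin chains FTL and FTH1, which store iron, rose by 0.20 and 0.17. Of the thioredoxin system TXN rose by 0.24, the peroxiredoxin PRDX1 rose by 0.20 and the sulfiredoxin SRXN1 rose by 0.30. UGDH, which makes the donor of glucuronidation, rose by 0.33 and the exporter ABCC3 rose by 0.30. The members that did not pass included NFE2L2, the gene of NRF2 itself (0.094), its inhibitor KEAP1 (0.13), the pentose phosphate enzyme PGD (−0.097), the transketolase TKT (0.055) and the exporter ABCC2 (0.13). Reads of the 4 aldo-keto reductases of this list may be shared among near-identical copies, and 16 of the other 24 members rose. The core letters of the antioxidant response element, TGACNNNGC (N for any base) on either strand, were in 15.2% of the promoters of genes tested. They were in 1 of 13 promoters of called genes of this list and in 4 of 20 promoters of the list. Among all called genes they were in 15 of 88 promoters of genes that rose and 31 of 198 of genes that fell. Binding was not tested.

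Glutathione metabolism overlapped with that list and moved less. Of 31 genes 5 rose and 0 fell (median 0.033), where 0.959% of all genes tested rose. The 5 were GSTA1, GSTA2, the peroxidase GPX2, GCLC, the catalytic subunit of the first enzyme of glutathione synthesis, and the glutathione reductase GSR. GPX2 rose from 378 ± 46.9 to 500.3 ± 43.7 CPM in all 9 pairs (0.41, SE 0.048). GCLC rose by 0.31 (SE 0.050) and GSR by 0.18 (SE 0.040), the latter only with the replicate factor (adjusted p = 0.0777 without it).

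Metallothioneins, small proteins that bind zinc and copper, rose in part. Of 10 genes tested, with zinc transporters and the sensor MTF1 included, 4 rose and 0 fell, where 0.959% of all genes tested rose. MT1G ran from 3.76 to 8.96 CPM (median 6.17) without DHA and from 9.93 to 17.8 CPM (median 13.6) with it. The ranges did not overlap, and the rise was 1.10 on the log2 scale (SE 0.14, adjusted p = 8.18e-06). MT1F and MT1E rose by 0.83 (SE 0.13) and 0.82 (SE 0.12). MT2A rose by 0.44 (SE 0.089) but not without the replicate factor (adjusted p = 0.0748). These genes are near copies in 1 cluster on chromosome 16, so reads shared among them are uncertain. The promoter of MT2A is shown with the metal response element core (TGCACNC or TGCGCNC on either strand) in capitals. These letters are in 39.0% of the promoters of genes tested.
MT2A (chr16:56608334-56608583, plus strand): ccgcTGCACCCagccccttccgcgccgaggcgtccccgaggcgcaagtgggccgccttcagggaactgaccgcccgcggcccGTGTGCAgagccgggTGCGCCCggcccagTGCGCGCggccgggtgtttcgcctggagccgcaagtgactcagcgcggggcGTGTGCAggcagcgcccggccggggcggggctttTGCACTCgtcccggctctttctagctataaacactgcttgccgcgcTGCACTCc
The bases shown hold 7 matches.

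Genes of the amino acid response, which the factor ATF4 induces when amino acids are short or translation is under stress, rose in part. Of 20 tested 9 rose, 1 fell and 10 did not pass (median 0.22), where 0.959% of all genes tested rose, and without the replicate factor 1 of the 9 rises was left. Beside SLC7A11 the rises with the smallest adjusted p were STC2, a secreted glycoprotein (0.30, SE 0.065), and PHGDH and PSAT1, the first enzymes of serine synthesis (0.21, SE 0.048, and 0.24, SE 0.056). STC2, PHGDH and PSAT1 did not pass without the replicate factor (adjusted p = 0.190, 0.0858 and 0.167). PSAT1 was uneven over the backgrounds, at 0.32 against Ctrl, −0.0068 against PRO and 0.39 against PCA. Its call was lost in 6 of 23 alternative fits, and that of PHGDH in 2. The other rises were DDIT4, an inhibitor of mTOR signalling (0.46), the amino acid transporters SLC1A5 (0.24) and SLC3A2 (0.24), the folate enzyme MTHFD2 (0.29) and ASNS. The 1 fall was TRIB3, a pseudokinase target of ATF4 (−0.21), and ATF4 itself had 0.038 (SE 0.054). SLC7A5, an importer of large neutral amino acids, had 0.20 (adjusted p = 0.0891).

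The letters TGATGNAA, the composite site of ATF4 and C/EBP proteins, were in 1.66% of the promoters of genes tested and on either strand in 7 of 88 promoters of genes that rose and 5 of 198 of genes that fell. Of 9 promoters of called genes of this list 2 held them, among them that of the asparagine synthetase ASNS, which rose by 0.55 on the log2 scale. The site is in capitals in the bases before its start.
ASNS (chr7:97872409-97872558, minus strand): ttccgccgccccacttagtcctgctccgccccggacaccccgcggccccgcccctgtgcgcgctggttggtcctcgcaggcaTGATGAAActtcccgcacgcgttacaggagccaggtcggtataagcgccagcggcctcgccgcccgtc

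Most chaperones of the endoplasmic reticulum did not pass. Of 18 genes 2 fell, HYOU1 (−0.22, SE 0.046) and PDIA4 (−0.13, SE 0.034), 0 rose and 16 did not pass. Values below 0 were found for 17 of the 18 (median −0.11) and for 5601 of the 11893 genes tested. Both calls were lost without the replicate factor (adjusted p = 0.0516 and 0.345). That of PDIA4 was lost in 12 of 23 alternative fits, mostly with 1 sample left out. The chaperones CALR and HSP90B1 had 0.046 (SE 0.036) and −0.095 (SE 0.037).

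The cell cycle lists held no call in the model used here, but that of DNA replication did in others. Of 33 genes of DNA replication 0 passed with edgeR and 0 with DESeq2, 9 had an unadjusted p below 0.05, and 30 had a value above 0 (median 0.080). MCM3 and MCM4, subunits of the replicative helicase, had 0.11 (SE 0.036, adjusted p = 0.105) and 0.13 (SE 0.041, adjusted p = 0.0876), and passed in 1 and 2 of 23 alternative fits (lowest adjusted p = 0.0201 and 0.0110). With the GC correction 4 genes of this list rose and 2 fell. Of 30 genes of mitosis 0 passed with edgeR and 0 with DESeq2, 1 had an unadjusted p below 0.05, and 15 were above 0 (median 0.0016). Over all 11893 genes tested 1731 had an unadjusted p below 0.05 with edgeR and 6292 had a value above 0.

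Few genes passed in the other metabolic lists. Over all genes tested 0.959% rose and 2.13% fell. Of 26 genes of branched-chain amino acid degradation 1 fell, the transaminase ABAT (−0.18, SE 0.048, adjusted p = 0.229 without the replicate factor), and 0 rose. Of 29 genes of glycolysis and gluconeogenesis 2 fell, the glucose-6-phosphatase G6PC (−0.49, SE 0.13, adjusted p = 0.214 without the factor) and the aldolase ALDOC (−0.31, SE 0.069). Of 13 genes of bile acid synthesis 1 fell, the repressor NR0B2 (−0.24, SE 0.059, adjusted p = 0.520 without the factor). The calls of ABAT and G6PC were each lost in 12 of 23 alternative fits and that of NR0B2 in 7, mostly with 1 sample left out. Of 17 genes listed as selenoproteins and their neighbours 2 rose, TXNRD1 and GPX2, and 2 fell, SEPP1, the plasma carrier of selenium (−0.26, SE 0.039, adjusted p = 0.185 without the factor), and CCDC152 (−0.47), which overlaps SEPP1 on the opposite strand, so that without strand in the libraries their reads cannot be told apart. GPX4, the lipid peroxide-reducing selenoenzyme, had 0.081 (SE 0.050).

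Plasma proteins and liver markers changed little in size. Of 26 plasma proteins 1 rose, antithrombin (SERPINC1, 0.21, SE 0.048, adjusted p = 0.0859 without the factor), and 2 fell, transferrin (TF, −0.20, SE 0.036) among them. Over all genes tested 0.959% rose and 2.13% fell. Of 15 hepatocyte markers 3 (20%) fell and 0 rose. APOB and TF were among the 3, and 1 of the 3 was left without the replicate factor. AFP did not pass (−0.068, SE 0.036). Among 9 of 16 markers of other cells that could be tested, LYZ fell (−0.28, SE 0.037), PDGFRB fell (−0.47, SE 0.094) and ACTA2 rose (0.25, SE 0.068, adjusted p = 0.302 without the factor). The call of ACTA2 was lost in 14 of 23 alternative fits, mostly with 1 sample left out. The summed level of the 9 markers ran from 1833 to 2305 CPM with DHA and from 1990.2 to 2776 CPM without, and nearly all of it was LYZ, with means of 1807 and 2196 CPM. The study cultured a single cell line, HepG2, and names no other cell type in the cultures. The part of other cells in the result was not tested. In bulk RNA, fewer cells that express a gene and less of its RNA per cell cannot be told apart.

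**Figure D4:**
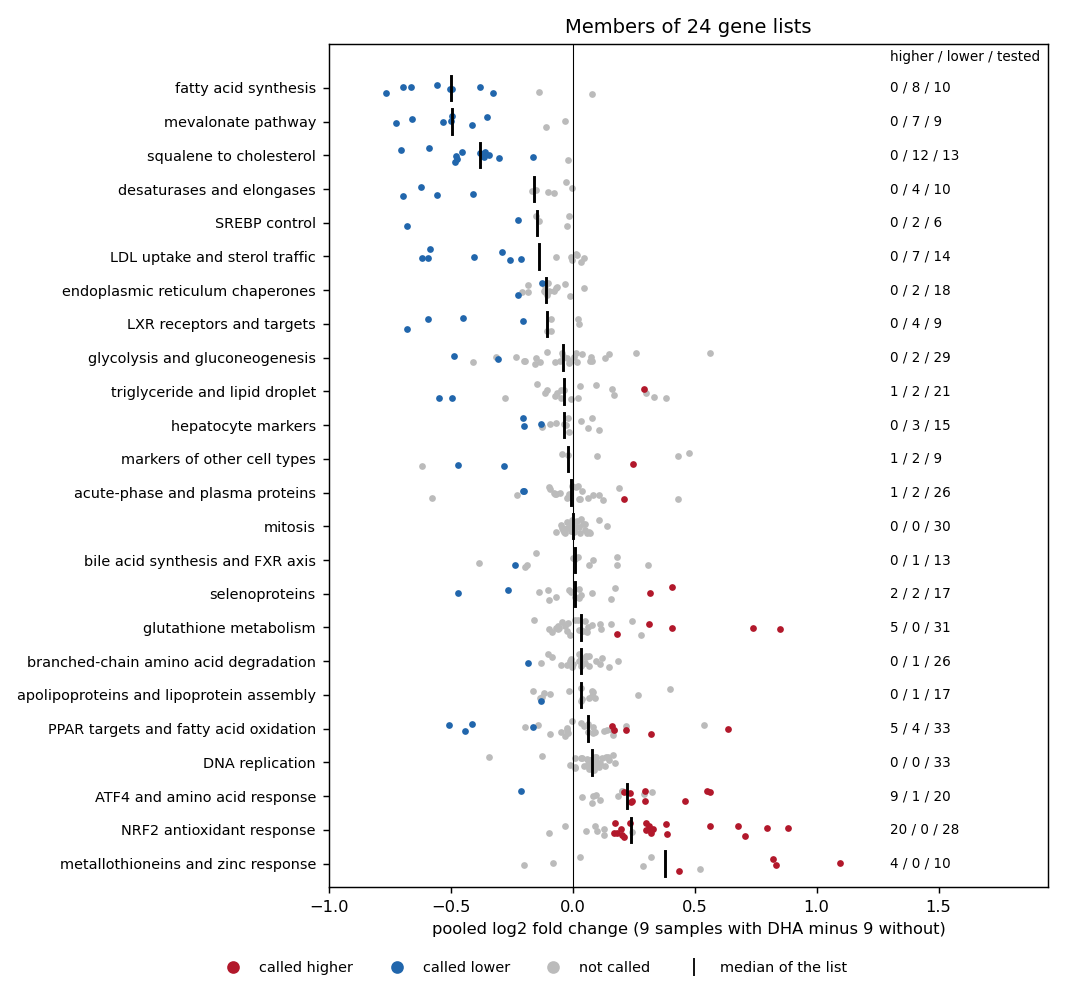
Pooled log2 fold change (horizontal axis) of every tested member of 24 gene lists, ordered by their medians (black bars), with the numbers that rose, fell and were tested at the right. The fatty acid, mevalonate and squalene lists lie wholly or almost wholly below 0 and the NRF2, ATF4 and metallothionein lists mostly above it, whereas DNA replication and mitosis hold no gene that passed.

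The 3 differences that make up the pooled effect share no sample. They do share the replicate numbers, the scaling and the variance estimates of the same model. Leaving out replicate 2 of PRO, for example, moved the count of DHA minus Ctrl to 113. Their agreement is therefore a description and not independent evidence. DHA minus Ctrl alone gave 77 genes (0.647% of those tested, 19 rises and 58 falls), DHA + PRO minus PRO 99 (0.832%, 26 and 73) and DHA + PCA minus PCA 79 (0.664%, 20 and 59). Without the replicate factor these counts were 23, 27 and 33, and the overlaps below are those of the calls with it. Of the 77 genes chosen against Ctrl, 76 had the same sign against PRO and 77 against PCA, and 40 (51.9%) and 48 (62.3%) passed there as well. Those 40 and 48 genes were 40.4% of the 99 genes of DHA + PRO minus PRO and 60.8% of the 79 genes of DHA + PCA minus PCA. The 99 and the 79 shared 34 genes, 34.3% and 43.0% of each. Of the 99 genes chosen on PRO, 91 had the same sign on Ctrl and 83 on PCA, and of the 79 chosen on PCA, 78 had the same sign on Ctrl and 72 on PRO. Over all genes tested the same-sign shares were 54.9% for Ctrl and PRO, 61.1% for Ctrl and PCA and 44.2% for PRO and PCA. These counts moved with single libraries. DHA minus Ctrl gave 28 genes without replicate 1 of DHA, and every left-out sample of DHA or Ctrl lowered it to 50 or less, and leaving out replicate 1 of DHA + PRO to 51. DHA + PRO minus PRO gave 49, 1464 and 56 genes without replicate 1, 2 and 3 of PRO and 37 and 47 without replicate 1 and 2 of DHA + PRO. DHA + PCA minus PCA gave 40 to 48 without a sample of PCA, 44 and 45 without replicate 2 and 3 of DHA + PCA, and 126 and 139 without replicate 1 and 2 of PRO.

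In all 3 differences 34 genes passed, 9 rises and 25 falls. The rises were AKR1B10, AKR1B15, AKR1C1, AKR1C2, AKR1C3, NQO1, GPX2, SPP1 and MT1G. The falls included HMGCS1, FDPS, ACAT2, FDFT1, SQLE, LSS, CYP51A1 and MSMO1 of cholesterol synthesis, ACSS2, ACLY, SCD, ELOVL6, FADS1, ACSL3 and LPIN1 of fatty acid metabolism, and C10orf10, IGFBP1, AGR2 and FST. ACSS2, for example, had log2 fold changes of −0.87, −0.70 and −0.73 on Ctrl, PRO and PCA, each with a standard error near 0.074, and FST had −0.76, −0.71 and −0.75.

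Whether the effect of DHA differed among the 3 backgrounds depended on the model and on single libraries. The test with both independent differences gave 0 of 11893 genes (0%) with edgeR's quasi-likelihood test (lowest adjusted p = 0.240, 1212 genes at an unadjusted p below 0.05), and 12 with DESeq2. Taken singly, the effect on PRO against that on Ctrl gave 0 genes (991 at an unadjusted p below 0.05) and that on PCA 0 (401), or 2 and 0 with DESeq2. Without replicate 2 of PRO the count for PRO was 308 genes and the test over backgrounds gave 870, without replicate 3 of DHA + PRO they were 12 and 20, whereas without replicate 1 of PRO, which stands apart in GC content, they were 0 and 0. A correction for GC content per library, chosen after seeing the data, gave 12 and 11 genes with all samples and 47 and 43 without replicate 2 of PRO. The pooled count was 458 without replicate 1 and 563 without replicate 2. The part of GC content in it was not tested further.

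At 6 h fewer genes passed for the same pooled difference. In a joint model of all 36 samples there were 82 of 12046 genes (0.681%, 26 rises and 56 falls) at 6 h and 328 (2.72%) at 24 h, and the difference between 24 h and 6 h passed for 20 genes (0.166%, 7 with a higher and 13 with a lower value at 24 h). Of the 7 genes with a higher value at 24 h, 5 had a larger rise, as SPP1, which went from 0.15 at 6 h to 0.66 at 24 h (adjusted p of the difference 2.10e-06), AKR1B10 (0.35 and 0.88), AKR1B15, AKR1C2 and NQO1. The secreted factors FST and IGFBP1 and the FOXO target C10orf10 were near 0 at 6 h (0.075, −0.081 and −0.066) and had fallen by 24 h, with differences of −0.82 (SE 0.086), −0.78 (SE 0.12) and −1.20 (SE 0.14).

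SCD, ACSS2, HMGCS1 and MSMO1 had already fallen at 6 h. SCD had −0.29 and then −0.70, and ACSS2 −0.28 and −0.77, both with a larger fall at 24 h. HMGCS1 had −0.81 (SE 0.062) at 6 h and −0.72 at 24 h, and its difference of 0.084 did not pass (adjusted p = 0.936). MSMO1 went the other way, from −0.80 at 6 h to −0.48 at 24 h (adjusted p of the difference 0.0233), a larger fall at 6 h. Without the replicate factor 0 of the 20 passed, and DESeq2 gave 42 genes. Without replicate 1 of DHA + PRO at 6 h the count of the difference was 49 and that of 6 h 309.

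**Figure D5:**
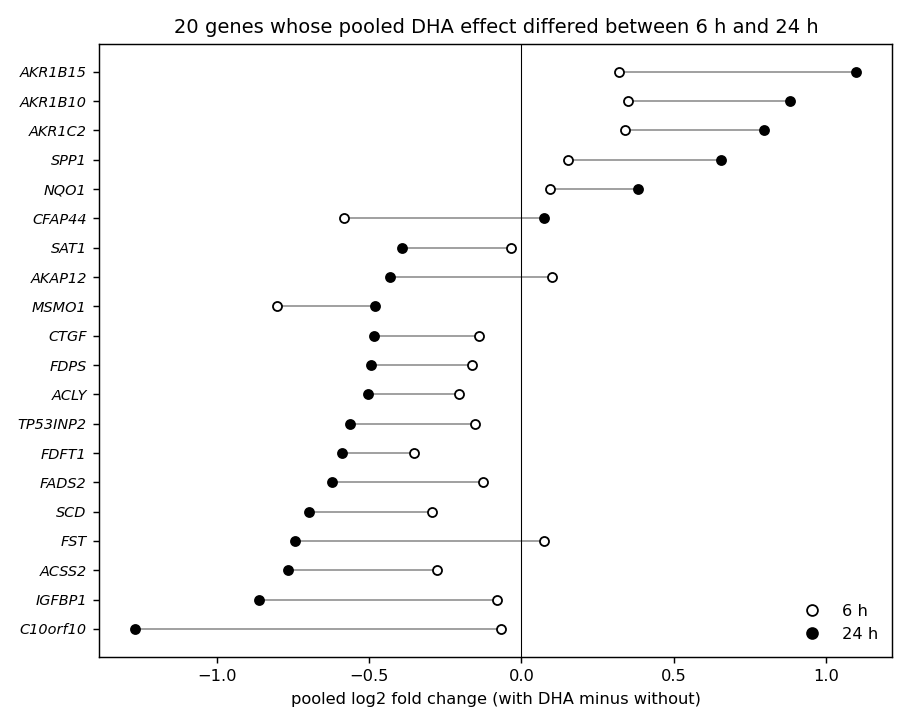
Pooled log2 fold change with DHA (horizontal axis) at 6 h (open circles) and at 24 h (filled circles), from 1 model of 36 samples, for the 20 genes whose effect differed between the times. The filled circle lies farther from 0 than the open one for all of them except CFAP44 and MSMO1, which have the larger change at 6 h.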

How the data were processed

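RNA-seq read counts of HepG2 cells were used. The authors aligned the reads to hg19 (GRCh37) with STAR and counted them per RefSeq gene with the iRNA-seq pipeline; aligner versions are not given in the sources used here. The deposited values are whole-number read counts, not normalized, for 18932 genes, from a library kit that does not mark strand. Genes with low counts were removed by edgeR's filterByExpr per group, and TMM-scaled counts were fitted by quasi-likelihood with group and replicate number as factors (edgeR 4.0.16, R 4.3.3, Benjamini-Hochberg adjustment). Genes passed at an adjusted p of 0.05 and an average log2 CPM above 0. SE is the absolute log2 fold change over the square root of F. CPM are TMM-scaled, and single differences used a prior count of 1. DESeq2 1.42.0, likelihood ratio, scaling, filter, GC-content (genes with GC content, 11861 of 11893), depth and left-out-sample alternatives were run. The model was also run on simulated data in which each gene was given a replicate effect. With the replicate factor 14 of 178 genes called there were unchanged ones, and without it 1 of 143. Of simulated log2 changes of 0.25, 51.5% were found with the factor and 20.6% without it. The simulated replicate effect had the form that the model with the factor fits, so a gain from the factor was built in. Changed genes were drawn from the more abundant ones only, and no simulated library stood apart in GC content. These rates therefore do not carry over to the data. The 36 samples of both times were fitted jointly with the replicate number within time. Promoters were searched on both strands.

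The replicate numbers are part of the definition of the pooled effect; the file headers give the same culture numbers to the same replicate in every group. Samples of the same number deviated together in 32 of 45 pairs (correlation above 0.1, range −0.171 to 0.329), and therefore not in all, so values without the factor are given where they change a call. No 2 libraries of a group agreed within sampling noise (lowest chi-square per degree of freedom 3.85). Depth was 5617341 to 42326734 counts.

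Genes were named by rule: the 12 largest rises and falls with 9 differences of one sign, genes the study names, and in each list up to 4 members that passed and up to 2 that did not. Further list members, MVK, MID1IP1 and ASNS among them, were named after their values were seen. The members and lists were chosen with earlier results of these data known. The study's tests of lipid and protein measurements were not repeated, and some genes are not reported here.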

Additional observations from a re-analysis of the deposited data

Results flagged for a closer look

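Of values in the 9 samples with and the 9 without DHA, 72 sets were tested. By Dixon's criterion, which flags about 1 in 20 sets by chance, 3 values stood apart. As a number, 3 of 72 is no more than chance gives. The number alone does not tell whether a given value is a chance flag. The gap to the nearest value, as a share of the range, was 0.924 for the total count, 0.58 for GSTA1 and 0.675 for HMGCS1. Study groups of 3 were not tested. The total count of replicate 2 of DHA + PRO was 42330000 against 5617000 to 8397000 in the other samples with DHA. GSTA1 was at 11.7 CPM in replicate 3 of DHA + PCA against 4.30 to 7.41 CPM. HMGCS1 was at 1145 CPM in replicate 1 of PRO, the library that stands apart in GC content, against 790.1 to 905.5 CPM.

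The pooled effect of DHA differed between 24 h and 6 h for 20 genes (test of the difference in 1 model of 36 samples). The log2 fold change was higher at 24 h by 0.78 for AKR1B15, by 0.53 for AKR1B10, by 0.50 for SPP1, by 0.46 for AKR1C2 and by 0.29 for NQO1, and by 0.65 for CFAP44 and 0.32 for MSMO1, which had their larger fall at 6 h. For genes of lipid synthesis the difference of 24 h minus 6 h was −0.50 for FADS2, −0.49 for ACSS2, −0.40 for SCD, −0.33 for FDPS, −0.30 for ACLY and −0.24 for FDFT1. For the others it was −1.20 for C10orf10, −0.82 for FST, −0.78 for IGFBP1, −0.53 for AKAP12, −0.41 for TP53INP2, −0.36 for SAT1, a spermine acetyltransferase, and −0.35 for CTGF, a matricellular growth factor.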

How the results depend on the processing

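Of 76 genes that passed and are named by rule, 55 did so in every setting tried for them, 19 were lost without the replicate factor, 11 without 1 sample, and 0 changed sign. Among genes that did not pass, the log2 fold change crossed 0 when 1 sample was left out for LBR (−0.050 to 0.014), ABCA1 (−0.012 to 0.050) and ATF4 (−0.0086 to 0.078). The pooled effect gave 146 genes with no replicate block and 806 with a correction for GC content and the replicate block, chosen after seeing the data. With 1 sample left out it gave 254 (without replicate 2 of PCA) to 563 genes (without replicate 2 of PRO), and with the GC correction as well 827 without replicate 1 and 696 without replicate 2 of PRO. The cause was not tested.

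DHA minus Ctrl gave 23 genes with no replicate block, 119 with the likelihood ratio test, 201 and 49 with the GC correction with and with no block, 28 to 113 with 1 sample left out, and 244 and 209 with the GC correction without replicate 1 and 2 of PRO. DHA + PRO minus PRO gave 27, 217, 191 and 44 in the same settings, 37 to 1464 with 1 sample left out, 77 and 253 with the GC correction without replicate 1 and 2 of PRO, 170 with DESeq2, 340 with no filter and 63 from the fit of 36 samples. DHA + PCA minus PCA gave 33, 130, 158 and 42, 40 to 139 with 1 sample left out, 206 and 174 with the GC correction without replicate 1 and 2 of PRO, and 150 with no filter.

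The effect on PRO against that alone gave 2 genes with DESeq2, 12 with the likelihood ratio test, 46 with no filter, 12 with the GC correction and 0 to 308 with 1 sample left out, or 47 with the GC correction without replicate 2 of PRO. The difference among backgrounds gave 12, 31, 127, 11 and 0 to 870, or 43. The difference between 24 h and 6 h gave 0 genes with no replicate block, 42 with DESeq2, 37 with no filter and 17 to 49 with 1 sample left out, and the effect at 6 h gave 38 with no block and 66 to 309. DNA replication held 4 rises and 2 falls with the GC correction. Changes near the smallest ones called could be missed at this depth in a single difference.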
